A study of Mus musculus with 4 samples.

Results

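Liver expression of 10 genes of the IL-6 driven acute phase response was compared between Foxo1 mutant and wild type mice. The genes were 2 inputs of the pathway, the IL-6 receptor alpha chain Il6ra and the transcription factor Stat3, and 8 secreted carriers and protective proteins, Hp, Hpx, Cp, Lcn2, Lbp, Itih3, Itih4 and Il1rn. They were taken by symbol from the 37315 gene rows of each library. These genes, and the partner and marker lists used below, were chosen with earlier results of these data known. All 10 were found, and all 10 were among the 14657 genes with enough counts to be tested. RNA sequencing covered 2 mutant libraries, from livers carrying a synonymous exchange in Foxo1, and 2 wild type libraries. All came from C57BL/6 mice of 23 weeks. A synonymous exchange leaves the amino acid unchanged. The sources used here give neither its position nor its zygosity, nor the sex or feeding of the mice. The labels also do not say that libraries of a group came from separate animals, so the p-values reflect only how far these libraries differ, and that spread may be technical.

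In the acute phase response, the cytokine IL-6 binds its receptor alpha chain on hepatocytes and engages the shared subunit gp130, encoded by Il6st. Janus kinases then phosphorylate STAT3, which enters the nucleus and acts with C/EBP and NF-kappa B factors to raise transcription of plasma protein genes. Several of these proteins are scavengers: haptoglobin holds free haemoglobin, haemopexin holds free haem, ceruloplasmin carries copper and oxidises iron, and lipocalin 2 withholds iron from bacteria by holding their siderophores. The brake SOCS3 is induced by the same signal and closes the loop.

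The libraries held 95908652 and 83594287 counts in mutant liver and 80975687 and 73551737 in wild type liver, so 3 counts stood for 0.0313 to 0.0408 CPM, that is, counts scaled to the size of the library. Summed hepatocyte markers reached 99150 to 115700 CPM in the 4 libraries. Foxo1 itself was at 33.6 and 53.4 normalised CPM in mutant liver and 44.0 and 54.8 in wild type liver, and its log2 fold change, mutant over wild type, was −0.18 with a standard error (SE) of 0.30 (adjusted p of 1.0 in edgeR). The groups overlapped, and a synonymous exchange need not alter the transcript level, so this value does not check the labels. Of the genes tested, 50 passed an adjusted p of 0.05 in edgeR's quasi-likelihood test, a share of 0.341%. Of those, 41 were higher (0.280%) and 9 lower (0.0614%) in mutant liver.

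None of the 10 genes passed that threshold in edgeR, set against 0.341% of all tested genes. All 10 had a positive log2 fold change, mutant over wild type, as had 49.7% of all tested genes. Their median was 0.25, against −0.0013 over all tested genes. Because the 10 genes were chosen with earlier results of these data known, shares over all tested genes describe the set and do not test it. At an unadjusted p below 0.05 edgeR gave 3 of the 10, Hpx, Itih3 and Hp, all higher in mutant liver, against 6.19% of all tested genes with 3.97% higher and 2.22% lower. DESeq2 called 1 of the 10, Hpx, against 0.882% of the genes it tested (0.664% higher), and limma-voom called 0, against 0.0478% (0.0341% higher). Both mutant libraries lay above both wild type libraries for 6 of the 10, against 17.0% of all tested genes in that direction. These 6 were Hp, Hpx, Cp, Lbp, Itih3 and Itih4. Among the 1108 tested genes with a mean of at least 100 CPM, where most of these lie, 16.8% had both mutant libraries above, 3.43% were higher at an unadjusted p below 0.05 and 50.0% had a positive value. The 6 encode secreted proteins, as do Lcn2 and Il1rn among the 4 genes whose groups overlapped. The inputs Il6ra and Stat3 also overlapped. Of the 6, Lbp was barely apart, at 125.3 CPM in mutant replicate 1 and 124.7 CPM in wild type replicate 1.

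The libraries did not contribute evenly. Wild type replicate 1 was the lowest library for 9 of the 10 genes, whereas it was the lowest for 24.8% of all tested genes. Lbp was the exception, with its lowest value in wild type replicate 2. The median log2 fold change of the 10 genes was 0.28 when mutant replicate 1 was left out and 0.14 when mutant replicate 2 was. It was 0.15 when wild type replicate 1 was left out and 0.36 when wild type replicate 2 was. Of the 10 genes, 8 had a positive value with mutant replicate 2 left out, and 8 with wild type replicate 1 left out.

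**Figure D1:**
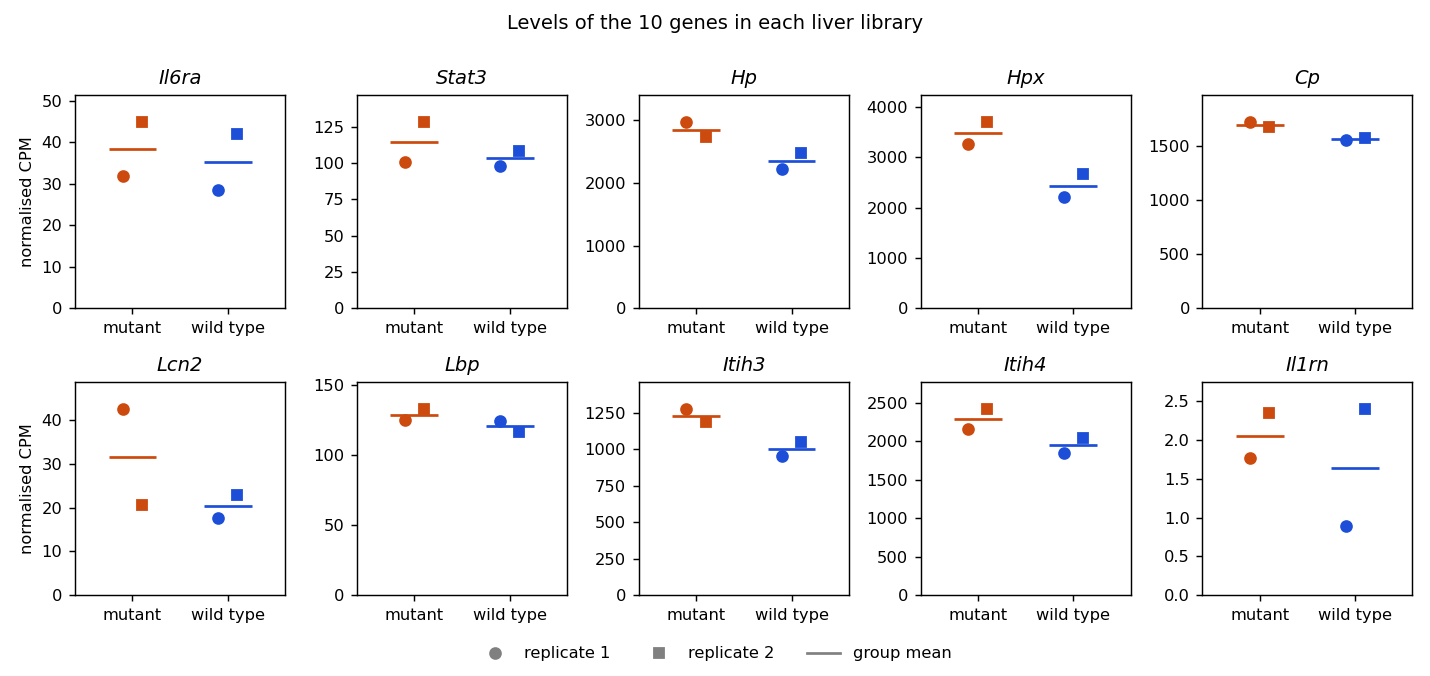
Normalised CPM (y axis, from 0, a scale of its own for each gene) of the 10 genes in mutant and wild type liver, with a circle for replicate 1, a square for replicate 2 and a line at the group mean of the 2 libraries. Both mutant points lie above both wild type points for Hp, Hpx, Cp, Lbp, Itih3 and Itih4, and Lcn2 in mutant replicate 1 (42.5 CPM) stands above the other 3 libraries (17.7 to 23.0 CPM).

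For the inputs of the pathway, the group means lay closer together than the 2 mutant libraries did. Il6ra (ENSMUSG00000027947, mm10 chromosome 3, 89864059 to 89913196, minus strand), the ligand-binding chain, was at 31.8 and 44.7 CPM in mutant liver and at 28.5 and 42.1 CPM in wild type liver. In each group replicate 2 was the higher library, and the groups overlapped. Its log2 fold change was 0.12 (SE 0.30, 95% interval −0.81 to 1.05, edgeR adjusted p = 1.0). The sign turned when mutant replicate 2 (−0.15) or wild type replicate 1 (−0.14) was left out. Stat3 (ENSMUSG00000004040, chromosome 11, 100885098 to 100939540, minus strand) was at 101 and 128 CPM in mutant liver and 98.2 and 108 CPM in wild type liver. Only mutant replicate 2 stood above the wild type range. Its log2 fold change was 0.15 (SE 0.12, 95% interval −0.11 to 0.41, edgeR adjusted p = 0.993), and −0.033 without mutant replicate 2. Exons of Stat3 overlap those of Stat5a on the opposite strand over 72 bases, and those of Il6ra overlap the antisense gene Gm42809 over 242. As the library kit leaves strand unmarked, the strand of reads from those stretches is not known. Stat5a was among the counted genes, whereas Gm42809 was not.

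Of the haem and haemoglobin scavengers, Hpx had the smallest p of the 10 genes, whereas Hp came after Itih3. Hpx, haemopexin (ENSMUSG00000030895, chromosome 7, 105591613 to 105600137, minus strand), was at 3269 and 3698 CPM in mutant liver and at 2203 and 2670 CPM in wild type liver. Both mutant libraries were above both wild type libraries, and the group means of 3483 ± 303 and 2437 ± 331 CPM (SD, n = 2 each) stood in a ratio of 1.43. The log2 fold change was 0.52 (SE 0.12, 95% interval 0.25 to 0.78), with an unadjusted p of 0.00107 and an adjusted p of 0.174 in edgeR. The gene passed in DESeq2 (adjusted p = 0.00355) and not in limma-voom (adjusted p = 0.303), and its log2 fold change was 0.38 to 0.66 when a library was left out. Hp, haptoglobin (ENSMUSG00000031722, chromosome 8, 109575128 to 109579172, minus strand), was at 2969 and 2731 CPM in mutant liver and 2227 and 2480 CPM in wild type liver. Its groups did not overlap either, but the nearest libraries, mutant replicate 2 and wild type replicate 2, were close. The log2 fold change of 0.28 (SE 0.11) had an edgeR adjusted p of 0.668. In TPM, a level scaled for both exon length and depth, these were the most abundant of the 10 genes, at ranks 33 and 38 of all genes. The ratio of Hp to Hpx on that scale was 0.848 and 0.689 in mutant liver and 0.944 and 0.867 in wild type liver, so Hpx was the higher of the pair in every library.

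The remaining hepatocyte carrier, Cp (ENSMUSG00000003617, chromosome 3, 19957054 to 20009145, plus strand), encodes ceruloplasmin. It was at 1717 and 1676 CPM in mutant liver and at 1553 and 1571 CPM in wild type liver. These were the tightest values of the set, the highest library being 1.105 times the lowest, and the groups did not overlap. The log2 fold change was 0.12 (SE 0.10, 95% interval −0.10 to 0.34, edgeR adjusted p = 0.997), and it lay between 0.10 and 0.13 when a library was left out. Exons of Cp overlap those of Hps3 on the opposite strand over 108 of 9566 bases.

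Itih3 and Itih4 belong to the heavy chain genes of the inter-alpha-trypsin inhibitor family and lie in a cluster on chromosome 14. Itih4 (ENSMUSG00000021922) spans 30886476 to 30902353 on the plus strand, Itih3 (ENSMUSG00000006522) 30908572 to 30923760 on the minus strand, and their relative Itih1 30929180 to 30943289 on the minus strand. Itih3 was at 1271 and 1184 CPM in mutant liver and 954 and 1049 CPM in wild type liver, with a log2 fold change of 0.29 (SE 0.11, unadjusted p of 0.0175, adjusted p of 0.589 in edgeR). Itih4 was at 2158 and 2410 CPM in mutant liver and 1848 and 2043 CPM in wild type liver, with a log2 fold change of 0.23 (SE 0.11) and an adjusted p of 0.848 in edgeR. Without mutant replicate 2 the value of Itih4 was 0.15. For both genes the mutant libraries were above the wild type libraries, but Itih3 was highest in mutant replicate 1 and Itih4 in mutant replicate 2.

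The neighbour Itih1 was at 737 and 741 CPM in mutant liver and at 767 and 738 CPM in wild type liver, with a log2 fold change of −0.03 (SE 0.10) and an adjusted p of 1.0 in edgeR. On the TPM scale the ratio of Itih3 to Itih1 was 1.56 and 1.45 in mutant liver and 1.13 and 1.29 in wild type liver. The ratio of Itih4 to Itih1 was 2.61 and 2.90 in mutant liver and 2.15 and 2.47 in wild type liver. Neither ratio overlapped between the groups, which repeats the separation of Itih3 and Itih4 given above, since Itih1 differed little. Itih2 and Ambp, which encode another heavy chain and the light chain bikunin, had log2 fold changes of 0.08 (SE 0.11) and 0.10 (SE 0.10), and neither passed in edgeR (adjusted p = 1.0 for both). Of the family's 4 tested genes outside the set, 0 passed in edgeR, DESeq2 or limma-voom and 0 had an unadjusted p below 0.05.

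The 250 bases before the RefSeq start were read for 8 of the 10 genes from the RefSeq promoter table of build GRCm38.p6. They were searched on both strands for 4 letter patterns of factors named above and of the forkhead family, to which Foxo1 belongs: TTCNNNGAA for STAT, TTNNGNAA for C/EBP, a pattern of 10 bases for NF-kappa B and TGTTTAC for forkhead factors. The STAT pattern was found for Itih4 alone, and in 7.02% of the 32851 promoters in the table. The 8 genes had 11 promoters, since Cp and Il1rn have several starts. The C/EBP pattern was found in 8 of the 11 promoters, from Il6ra, Stat3, Hpx, Cp, Lcn2 and Il1rn, and in 36.8% of all promoters. The Il1rn windows that begin at 24345041 and 24345121 overlap and share a site, which is counted in both. The Il1rn window that begins at 24336610 had no C/EBP match. The NF-kappa B pattern was found for Il1rn (3.44% of all promoters), the forkhead pattern for 0 of the 8 genes (3.17% of all promoters), and Itih3 held none of the 4. The windows of 3 genes are printed in their own orientation, with matches in capitals: Hpx because it had the smallest p of the set, Itih4 because it holds the STAT pattern, and the upstream start of Cp, an abundant carrier with a small difference, for comparison. Capitals mark C/EBP patterns in Hpx and Cp and the STAT pattern in Itih4, and no match overlaps another in these windows. A match describes letters, not a bound site.
Hpx (chr7:105600117-105600366, minus strand): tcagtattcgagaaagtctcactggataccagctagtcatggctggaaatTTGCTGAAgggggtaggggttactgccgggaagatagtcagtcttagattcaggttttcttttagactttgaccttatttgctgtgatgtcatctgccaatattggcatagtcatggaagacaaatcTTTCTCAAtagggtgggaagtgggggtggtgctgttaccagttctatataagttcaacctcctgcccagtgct
Itih4 (chr14:30886226-30886475, plus strand): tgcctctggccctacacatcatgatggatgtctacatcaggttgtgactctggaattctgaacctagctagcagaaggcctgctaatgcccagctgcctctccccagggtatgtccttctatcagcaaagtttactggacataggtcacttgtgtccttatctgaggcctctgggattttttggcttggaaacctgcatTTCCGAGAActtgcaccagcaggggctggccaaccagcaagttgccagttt
Cp (chr3:19956804-19957053, plus strand): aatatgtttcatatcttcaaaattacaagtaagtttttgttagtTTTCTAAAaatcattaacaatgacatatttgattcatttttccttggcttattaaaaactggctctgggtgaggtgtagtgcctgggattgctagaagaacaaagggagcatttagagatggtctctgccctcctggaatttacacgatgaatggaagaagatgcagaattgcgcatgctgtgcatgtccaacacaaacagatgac

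Lcn2 and Lbp act in bacterial defence. Lcn2, lipocalin 2 (ENSMUSG00000026822, chromosome 2, 32384633 to 32388252, minus strand), was at 42.5 and 20.6 CPM in mutant liver and 17.7 and 23.0 CPM in wild type liver. Only mutant replicate 1 was high, and mutant replicate 2 lay within the wild type range. The log2 fold change of 0.63 was the largest of the set but had an SE of 0.51 and an adjusted p of 1.0 in edgeR (95% interval −1.29 to 2.56). It was 0.02 without mutant replicate 1 and 1.06 without mutant replicate 2. Lbp (ENSMUSG00000016024, chromosome 2, 158306493 to 158332852, plus strand) encodes the plasma protein that hands lipopolysaccharide to CD14. It was at 125 and 133 CPM in mutant liver and 125 and 117 CPM in wild type liver. Mutant replicate 1 (125.3 CPM) and wild type replicate 1 (124.7 CPM) were nearly level. On the TPM scale they stood the other way, at 54.9 TPM in mutant replicate 1 and 57.1 TPM in wild type replicate 1, so that the groups overlapped. The log2 fold change was 0.10 (SE 0.09, 95% interval −0.11 to 0.30, edgeR adjusted p = 1.0). It was 0.053 when mutant replicate 2 was left out, and 0.049 or 0.15 when wild type replicate 2 or 1 was.

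Il1rn (ENSMUSG00000026981, chromosome 2, 24336853 to 24351494, plus strand) encodes the antagonist that blocks the IL-1 receptor. It was scarce, with 168 and 196 counts (1.76 and 2.34 CPM) in mutant liver and 74 and 173 counts (0.892 and 2.39 CPM) in wild type liver. The wild type libraries enclosed both mutant libraries. The log2 fold change was 0.33 (SE 0.45, 95% interval −0.76 to 1.42, edgeR adjusted p = 1.0), and it ran between −0.22 without wild type replicate 1 and 1.2 without wild type replicate 2.

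**Figure D2:**
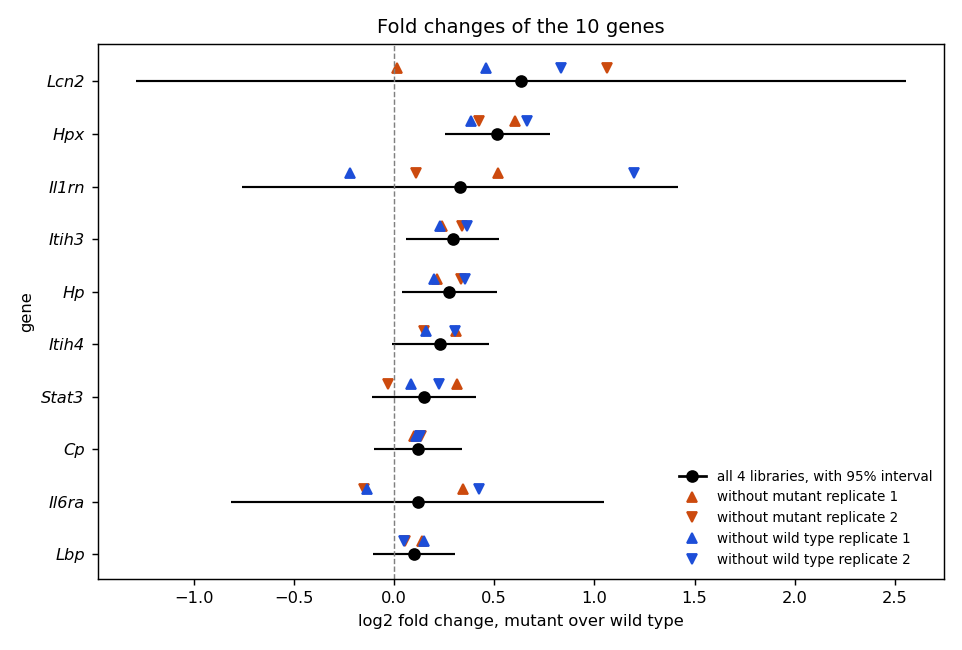
Log2 fold change, mutant over wild type, of the 10 genes (black points, with 95% intervals as lines) and the value without each library (triangles above the line, orange for a mutant and blue for a wild type library left out). The intervals of Hpx, Itih3 and Hp lie above 0, and the triangles of Lcn2 run from 0.02 to 1.06.

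In levels per kilobase of exon the genes spanned a wide range. The mean TPM over the 4 libraries was 4204 for Hpx, 3452 for Hp, 1221 for Itih4, 653 for Itih3 and 363 for Cp, then 55.1 for Lbp, 24.4 for Stat3, 21.0 for Lcn2, 9.05 for Il6ra and 0.708 for Il1rn. Adjacent genes in that order kept it in every library except for Stat3 and Lcn2. Lcn2 was at 34.3 and 16.6 TPM in mutant liver and 14.9 and 18.3 TPM in wild type liver, and Stat3 at 22.4 and 28.6 TPM in mutant liver and 22.8 and 23.7 TPM in wild type liver. Together the 10 genes took 1.16% and 1.2% of all counts in mutant liver and 0.927% and 0.993% in wild type liver.

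Of 153 other genes of the pathway and its partners, 152 were in the files, 140 were tested and 5 passed the threshold in edgeR. All 5 were higher in mutant liver, and the share of all tested genes called in that direction was 0.280%. That share is given for description, since the lists were chosen with earlier results of these data known. At an unadjusted p below 0.05 there were 20 higher and 2 lower, and the median log2 fold change of the 140 was 0.08. The 5 were the STAT5-induced brake Cish, the plasma proteins Orm2, Apcs and Fgl1, and Alas1, the first enzyme of haem synthesis. Cish was at 6.44 and 4.40 CPM in mutant liver and 1.92 and 1.81 CPM in wild type liver, and its log2 fold change was 1.54 (SE 0.22, adjusted p of 0.0109 in edgeR). Orm2, an orosomucoid, was at 44.5 and 46.7 CPM in mutant liver and 9.72 and 13.3 CPM in wild type liver, a difference of 1.99 on the log2 scale (SE 0.14, edgeR adjusted p = 0.0011). Alas1 was at 234 and 266 CPM in mutant liver and 131 and 131 CPM in wild type liver (0.93, SE 0.10, edgeR adjusted p = 0.00228). In all 5 the groups were apart, and Fgl1 (0.91, SE 0.12, edgeR adjusted p = 0.0109) and Apcs (0.54, SE 0.09, edgeR adjusted p = 0.0312) had the size of difference nearest to that of Hpx among the 5. The exons of Cish overlap those of Gm17040 and Gm17041 on the opposite strand. Of the 5 calls, Orm2 was lost only without mutant replicate 1 (edgeR adjusted p = 0.056), Cish and Fgl1 passed in 1 of the 4 fits that left out a library, and Alas1 and Apcs in 0. Cish, Fgl1 and Apcs also did not pass in limma-voom (adjusted p of 0.122, 0.0544 and 0.107) or in edgeR without robust estimation. Orm2 has close paralogs that may share its reads.

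Upstream of Stat3, none of the receptor genes passed. The tested ligands and receptors of the IL-6 family (11 of 16) had a median log2 fold change of 0.06, with 0 past the threshold and 0 at an unadjusted p below 0.05 in edgeR, and 0 in DESeq2 and limma-voom. Il6st was at 106 and 104 CPM in mutant liver and 103 and 104 CPM in wild type liver (log2 fold change 0.02, SE 0.09), and the kinase Jak1 at 119 and 117 CPM in mutant liver and 114 and 114 CPM in wild type liver (0.05, SE 0.09). Il6 itself was near the limit of detection, with 0 counts in both mutant libraries, which allows up to 0.0313 and 0.0359 CPM, and 10 and 5 counts in the wild type libraries. Downstream, the brake Socs3 was at 5.30 and 4.71 CPM in mutant liver and 3.27 and 2.17 CPM in wild type liver. Its groups did not overlap, and its log2 fold change of 0.88 (SE 0.21) had an unadjusted p of 0.00146 and an adjusted p of 0.181 in edgeR. Among 19 tested JAK-STAT genes, 1 passed, with a median of 0.05. Among 18 transcription factors and early targets 0 passed in edgeR and limma-voom and 1 in DESeq2, with 3 higher and 1 lower at an unadjusted p below 0.05 and a median of 0.12.

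Genes of the list of other plasma proteins tied to the response varied in size of difference. The list is mixed, since it also holds Alb and genes of other kinds such as Mt1. Its counts therefore do not measure induction by IL-6. Of 36 tested, 3 passed in edgeR, 7 in DESeq2 and 2 in limma-voom. The shares of all genes tested by each tool were 0.341%, 0.882% and 0.0478%. A positive log2 fold change was found for 29, against 49.7% of all tested genes, and the median was 0.11. The fibrinogen chains, which are also IL-6 targets, had log2 fold changes of 0.02 for Fga, 0.07 for Fgb and 0.05 for Fgg (SE 0.10 to 0.11, edgeR adjusted p = 1.0 for each). These 3 were picked with their values in view. Their mean levels over the 4 libraries were 3406 TPM for Fga, 2486 for Fgb and 3166 for Fgg, beside 4204 TPM for Hpx, whose log2 fold change was 0.52. At the other end of the list, Saa2 was at 73.9 and 114 CPM in mutant liver and 9.95 and 20.3 CPM in wild type liver. Its log2 fold change was 2.64 (SE 0.59), with an adjusted p of 0.754 in edgeR, 0.00213 in DESeq2 and 0.0277 in limma-voom. Its near copy Saa1, with which reads may be shared, had 1.62 (SE 0.35). The adjusted p of Saa1 was 0.624 in edgeR, 0.00839 in DESeq2 and 0.0544 in limma-voom. Saa1 and Saa2 were also picked with their values in view. The list's other serum amyloid genes, Saa3 and Saa4, had log2 fold changes of 0.45 (SE 0.24) and −0.03 (SE 0.10).

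Partners of the scavengers were read for the same contrast. Hmox1, haem oxygenase 1, was at 22.5 and 21.4 CPM in mutant liver and 16.8 and 15.5 CPM in wild type liver, a log2 fold change of 0.44 (SE 0.10, unadjusted p of 0.00106, adjusted p of 0.174 in edgeR). Both of its mutant libraries were above both wild type libraries. Cd163, the macrophage receptor for haptoglobin with haemoglobin, was at 27.2 and 17.3 CPM in mutant liver and 15.7 and 17.5 CPM in wild type liver, and so was high in mutant replicate 1 alone. Lrp1, the receptor for haemopexin with haem, was at 715 and 936 CPM in mutant liver and 911 and 834 CPM in wild type liver, with overlapping groups. Of 22 haem, haemoglobin and iron partners 1 passed, Alas1, with a median of 0.05, and of 7 copper partners of ceruloplasmin 0 passed in any of the 3 tools (edgeR, DESeq2, limma-voom), nor did any have an unadjusted edgeR p below 0.05. The copper exporter Atp7b was at 28.8 and 34.1 CPM in mutant liver and 28.7 and 33.2 CPM in wild type liver. The lipocalin receptor Slc22a17 stayed below 1 CPM in all 4 libraries.

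Of the receptors and ligands that meet Lbp and Il1rn, Cd14, Tlr4 and Il1b were scarce, whereas Il1r1 and Il1rap were not. The lipopolysaccharide coreceptor Cd14 was at 1.56 and 1.95 CPM in mutant liver and 1.41 and 1.11 CPM in wild type liver, and Tlr4 at 2.19 and 1.6 CPM in mutant liver and 1.47 and 1.54 CPM in wild type liver. Il1b was at 1.23 and 1.36 CPM in mutant liver and 0.506 and 0.360 CPM in wild type liver, a log2 fold change of 1.57 (SE 0.36, unadjusted p of 0.000824, adjusted p of 0.144 in edgeR). Its groups did not overlap, unlike those of its antagonist Il1rn. The signalling receptor Il1r1 was at 38.7 and 64.6 CPM in mutant liver and 39.6 and 44.5 CPM in wild type liver, and its partner Il1rap at 163 and 157 CPM in mutant liver and 159 and 173 CPM in wild type liver. Of 11 tested genes of lipopolysaccharide sensing and 12 of the IL-1 system, 0 passed in any of the same 3 tools. The sensing list had 1 gene at an unadjusted edgeR p below 0.05 and a median of 0.07, and the IL-1 list had 3 and a median of 0.31.

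**Figure D3:**
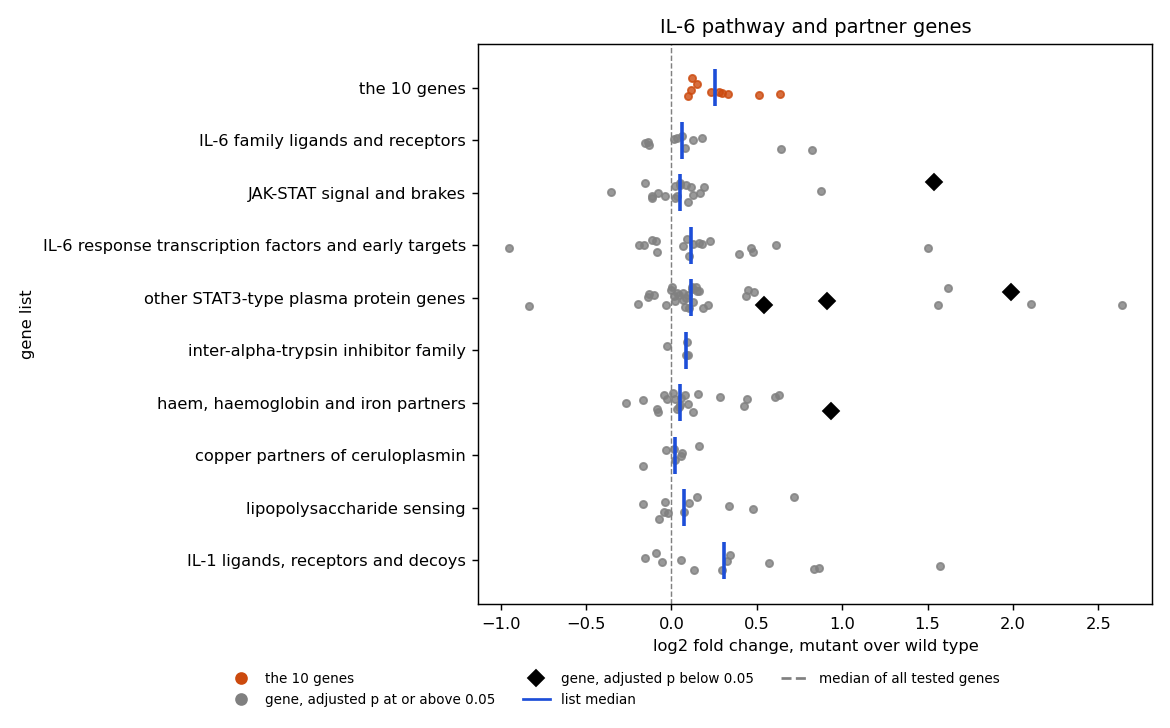
Log2 fold change, mutant over wild type (x axis), of the 10 genes and of the tested genes of 9 lists of pathway and partner genes (rows), with a blue bar at each list's median and a dashed line at the median of all tested genes. Black diamonds are the 5 genes past the threshold, and the median of the 10 genes is 0.25 against 0.06 for the IL-6 family ligands and receptors.

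Markers of macrophages moved in the same libraries. All 14 markers of Kupffer cells and macrophages had log2 fold changes above 0, and the median was 0.65. Of the 14, 7 passed in edgeR, 11 in DESeq2 and only 1 in limma-voom, so the count depended on the tool. The shares of all genes tested by each tool, in either direction, were 0.341%, 0.882% and 0.0478%. The summed level of the 14 markers was 563 and 634 CPM in mutant liver and 368 and 392 CPM in wild type liver. Macrophages are a known source of Il1rn and Lcn2, and the part of these cells in the values of the 10 genes was not tested. In bulk tissue a change in the number of cells of a type and a change in RNA per cell cannot be told apart. Neutrophils, which also store lipocalin 2, had scarce markers, with 11 of 12 below 1 CPM in all 4 libraries. Their sum was 4.44 and 4.12 CPM in mutant liver and 2.89 and 3.72 CPM in wild type liver. Of the 12, 5 were tested, and 0 passed in edgeR, DESeq2 or limma-voom. Among these 5, the log2 fold change was above 0 for 4 and below 0 for 1, with 0.95 in the middle. At an unadjusted edgeR p below 0.05, 2 were higher, and 3 had both mutant libraries above both wild type libraries. The part of neutrophils in the value of Lcn2 was not tested. Monocyte markers summed to 10.2 and 9.40 CPM in mutant liver and 6.50 and 6.78 CPM in wild type liver. The ratio of summed levels, mutant over wild type, was 0.997 for sinusoidal endothelial, 0.996 for stellate and 0.956 for bile duct markers. T and B cell sums overlapped between the groups, adipocyte markers stayed at or below 0.41 CPM with Adipoq and Plin1 at 0, and of the pancreatic acinar markers Cpa1, Prss2 and Cel were at 0. The sum of the acinar list was nearly all Cela1, at 18.3 and 18.5 CPM in mutant liver and 22.8 and 20.5 CPM in wild type liver, which was lower at an unadjusted edgeR p below 0.05. The hepatocyte markers, from the cells that make Hp, Hpx, Cp, Itih3, Itih4 and Lbp, summed to 102300 and 99150 CPM in mutant liver and 105700 and 115700 CPM in wild type liver. Albumin (Alb) carried that difference, since without it the sums were 34340 and 34370 CPM in mutant liver and 34150 and 34990 CPM in wild type liver and the groups overlapped. The 9 genes other than Hpx summed to 8417 and 8329 CPM in mutant liver and 6853 and 7436 CPM in wild type liver. Both omissions were made after the values were seen. The hepatocyte list's median log2 fold change was −0.04, and 0 of 10 passed in the 3 tools, while 1 had an unadjusted edgeR p below 0.05. Erythroid markers, which bear on the ligands of Hp and Hpx, summed to 295 and 335 CPM in mutant liver and 239 and 266 CPM in wild type liver. Of their 5 tested genes, 1 passed in edgeR, the beta globin Hbb-bt, and their part in the values of Hp and Hpx was not tested.

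**Figure D4:**
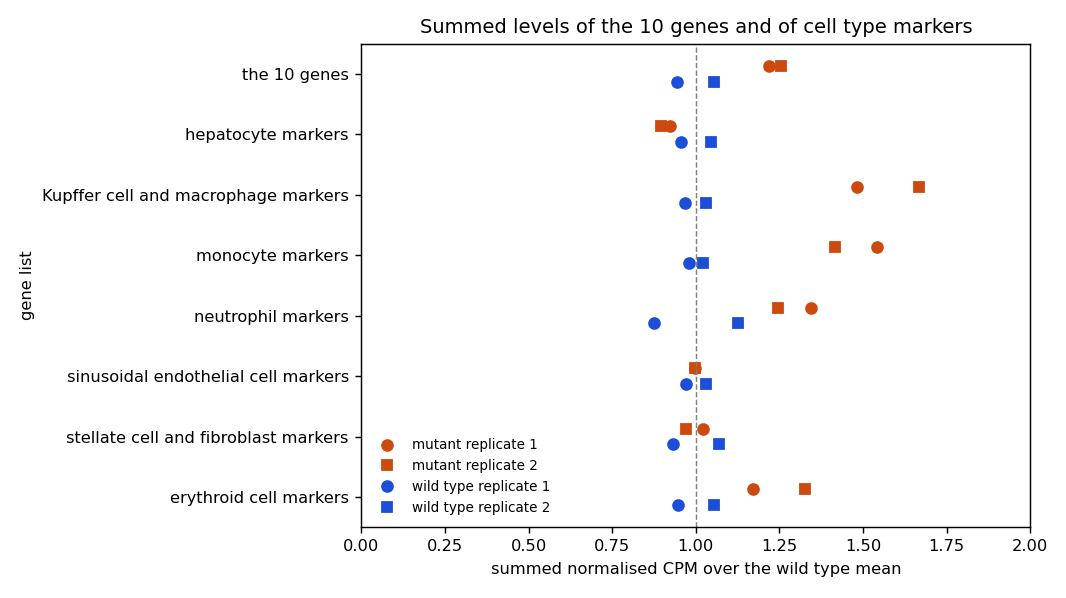
Summed normalised CPM of the 10 genes and of marker lists in each library, divided by the mean of the 2 wild type libraries (x axis, from 0), with circles for replicate 1 and squares for replicate 2. The mutant points (orange) of the 10 genes lie above the wild type points (blue), with a ratio of group means of 1.24, against 1.57 for macrophage markers and 0.91 for hepatocyte markers, a value that becomes 0.994 without albumin.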

How the data were processed

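RNA from liver was purified as polyadenylated RNA and made into libraries with a TruSeq RNA kit, which does not mark strand, and read in pairs of 150 bp, per the labels' protocols. The authors deposited, for each library, whole-number read counts by Ensembl gene, neither scaled nor pooled. The authors' tools were TopHat2 2.1.1 and HTSeq 0.6.0 with build mm10, per the submitters' processing notes. Neither the mode and strand setting of the counting nor the gene models behind it appear in the sources used here. Symbols, coordinates and exon lengths came from GENCODE for GRCm38, the build behind mm10, and 95.2% of the 37315 rows had a symbol. No summary rows were present.

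A filter (filterByExpr, minimum count of 10) and TMM scaling, with factors of 0.983 to 1.02, preceded testing with the robust quasi-likelihood test of edgeR 4.0.16 in R 4.3.3, with the group as the only term and Benjamini-Hochberg adjustment over all 14657 tested genes. Values are TMM-normalised CPM. Each standard error was taken as the size of the log2 fold change divided by the square root of F. Intervals use the same error and the test's degrees of freedom. TPM used the union of exons. DESeq2 1.42.0 and limma-voom (limma 3.58.1) were alternatives, beside RLE and upper-quartile scaling, other filters, no robust estimation, a replicate block and each library left out with the same genes kept. A lone library is then assumed to vary like the other group. The test was checked on simulated data with changes larger than those of the 10 genes, so the check does not cover differences of their size. Every pair of libraries differed by more than counting noise, with a chi-square of 61.7 to 106 a gene. It was 74 between the wild type libraries, and 62.5 and 64.3 between wild type replicate 1 and mutant replicates 1 and 2. By this measure wild type replicate 1 was nearer to the mutant libraries than to wild type replicate 2. The correlation of log2 CPM was 0.988 within each group and 0.986 to 0.987 between groups. Floors of 3 counts cover counting error only.

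The 10 genes, the partner lists and the marker lists were chosen with earlier results of these data known. Genes are named as follows: the 10 genes, Foxo1, partner genes past the threshold and a fixed set of direct partners, with other names marked as chosen after their values were seen.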

Additional observations from a re-analysis of the deposited data

How the results depend on the processing

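Of 120 values of the 10 genes under 12 alternatives, 116 were positive and 3 passed the threshold, all of Hpx: with no filter (adjusted p = 0.000169), in DESeq2 (0.00355) and with the replicate number as a block (edgeR adjusted p = 0.021). In each of these settings 1 of the 10 genes was called, against 0 in the others. The sign turned for Il6ra with mutant replicate 2 (−0.15) or wild type replicate 1 (−0.14) left out, to 0.42 at most, for Stat3 with mutant replicate 2 left out (−0.033, to 0.31 at most) and for Il1rn with wild type replicate 1 left out (−0.22, to 1.2 at most). The median of the 10 genes was 0.14 to 0.36 with a library left out and 0.25 to 0.26 in the other settings. Genes past the threshold numbered 50, and 258 with no filter, 24 with at least 1 CPM in 2 libraries, 109 in DESeq2, 7 in limma-voom, 8 without robust estimation, 111 with the replicate block and 3 to 17 with a library left out. The partner genes past it numbered 5, and 12, 5, 10, 3, 3, 9 and 0 to 5 in those settings. Same-numbered libraries of the 2 groups did not deviate together (correlation of −0.0072), and the labels tie no numbers, so they were not treated as pairs. With 2 libraries a group, differences of the size seen for Cp or Lbp could not be told from 0 at this precision, and the counts behind Il1rn were few. The causes of these changes were not tested.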

Other observations

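Lcn2 was not alone in being high in mutant replicate 1. Among the partner and marker genes, and chosen after their values were seen, Myc was at 11.7 and 4.03 CPM in mutant liver and 3.08 and 2.46 CPM in wild type liver, and the scavenger receptor Marco at 15.3 and 6.36 CPM in mutant liver and 5.35 and 3.18 CPM in wild type liver. The metallothionein Mt1, a zinc and copper binding protein induced in the acute phase, was at 39.4 and 18.9 CPM in mutant liver and 8.59 and 11.2 CPM in wild type liver. For these 3 genes both mutant libraries were above both wild type libraries, whereas Lcn2 overlapped. None of the 3 passed in edgeR. The log2 fold change was 1.5 for Myc (SE 0.72, edgeR adjusted p = 0.966) and 1.56 for Mt1 (SE 0.53, edgeR adjusted p = 0.896). A second metallothionein, Mt2, was at 33.6 and 18.2 CPM in mutant liver and 5.22 and 6.81 CPM in wild type liver. Its log2 fold change was 2.11 (SE 0.43), with an adjusted p of 0.611 in edgeR, 0.00168 in DESeq2 and 0.0881 in limma-voom. Exons of Mt2 overlap the antisense gene Gm45774 over 432 of 588 bases. Mt2 too is named after its values were seen.

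Other genes downstream of STAT factors gave differing patterns. Cish was higher in mutant liver, whereas Socs2, also induced by STAT5, followed the replicate number, at 7.03 and 3.24 CPM in mutant liver and 6.52 and 2.46 CPM in wild type liver. Bcl6, a transcriptional repressor, was at 14.1 and 14.4 CPM in mutant liver and 34.0 and 21.0 CPM in wild type liver (log2 fold change −0.95, SE 0.25, unadjusted p of 0.0168, adjusted p of 0.584 in edgeR, 0.000253 in DESeq2 and 0.271 in limma-voom). Socs2 and Bcl6 are named after their values were seen.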
